A study of Mus musculus with 6 samples.

Results

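The genes described here encode the eIF5A isoforms, Eif5a and Eif5a2, and the 2 hypusination enzymes, Dhps and Dohh. They were taken by gene symbol, and all 4 were found among the 54532 genes of the count table. Messenger RNA was sequenced in 6 libraries of primary mouse myoblasts on day 2 of proliferation in culture with FGF (10 ug/ml) and 10% fetal bovine serum, with 3 libraries labelled WT and 3 labelled eIF5A knockout. The study describes its knockout mice as Pax7 CreERT2/+;eIF5A f/f, in which tamoxifen lets Cre recombine the floxed eIF5A alleles in cells that express Pax7, the transcription factor of satellite cells. Its controls are given as Pax7 CreERT2/+ mice, as Pax7 +/+;eIF5A f/f mice or as WT littermates, and its myoblasts for translational profiling came from 3-week-old mice; neither the mice behind each of these libraries nor their number is stated. Each library held 16281216 to 17734551 counts. The p-values measure the spread between libraries, which may be technical.

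eIF5A is a translation factor that binds the ribosome and helps it through stretches that stall, such as runs of prolines, and that also acts in termination. It is known as a protein that carries hypusine, an amino acid made on 1 of its lysines from the polyamine spermidine. Deoxyhypusine synthase (DHPS) moves the aminobutyl part of spermidine onto that lysine, and deoxyhypusine hydroxylase (DOHH) then hydroxylates it. eIF5A2 is the paralog of eIF5A, usually found at a low level outside brain, testis and some tumours. Satellite cells, the stem cells of skeletal muscle, need translation control to leave quiescence, which is the setting in which the study removed eIF5A.

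The site that links the 4 genes is lysine 50 in the translated coding sequences of both Eif5a and Eif5a2, which code for 154 and 153 residues. The proteins were identical at 127 of 154 aligned positions (82.5%). The coding sequences were identical at 334 of 462 aligned bases (72.3%). The 57 coding bases around the site, codons 41 to 59, are shown because they hold the substrate of both enzymes and show how far apart the transcripts are at the modified site. They were read 5′ to 3′ from the spliced GENCODE M21 transcripts (GRCm38), with the codon of the hypusinated lysine in capitals.
Eif5a: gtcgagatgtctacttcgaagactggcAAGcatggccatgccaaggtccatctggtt
Eif5a2: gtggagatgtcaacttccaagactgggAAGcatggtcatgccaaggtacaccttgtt
These stretches translate into the same 19 amino acids, although they share only 49 of 57 bases and 11 of 19 codons. The Eif5a stretch runs on the minus strand from chr11:69918010-69919195 and the Eif5a2 stretch on the plus strand from chr3:28782172-28782739, each across 1 intron that the spliced sequence leaves out. In Eif5a the codon of lysine 50 lies in exon 3 of the 7-exon transcript, at positions 69919166 to 69919168, and this exon also carries the start codon. In Eif5a2 it lies in exon 2 of 5, at 28782199 to 28782201, again in the exon with the start codon.

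Eif5a (ENSMUSG00000078812, chr11:69916714-69921958, minus strand) is the gene that the knockout targets, and its transcript checks the labels. The study reports its knockout as established, from RT-qPCR in freshly isolated satellite cells and immunostaining on single myofibers. Neither was made on the cultured myoblasts sequenced here. It also shows a western blot of eIF5A protein in knockout and WT cells. Its read count was 24797, 18598 and 20965 in WT replicates 1 to 3 and 22300, 24646 and 18687 in the libraries labelled eIF5A-KO. In CPM, which are counts brought to a common library size with TMM factors for unequal composition, these were 1603, 986 and 1238 in WT and 1364, 1459 and 1059 in the libraries labelled eIF5A-KO. The highest and the lowest value both belonged to WT, so the groups overlapped entirely. The log2 fold change was 0.02 (SE 0.23, 95% interval -0.51 to 0.55; edgeR quasi-likelihood test, Benjamini-Hochberg adjusted p = 0.993), a level of 1.01 times that of WT with an interval of 0.705 to 1.46. A gene-level drop of the Eif5a transcript to below 0.705 of WT lies outside that interval.

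The count of a whole gene is only a partial check of the deletion. The study draws the loxP sites around the exon that holds the start codon. That exon has 186 bases, which is 12.9% of the 1437-base main transcript and 7.83% of the 2377 bases that all annotated Eif5a exons cover together. A transcript that lacked only this exon would still have been counted through the others, and exon counts were not analysed here. Reads over the start-codon exon therefore could not be separated from the rest, and the libraries are called by their labels throughout.

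Levels of cell type markers are given beside that count, since Cre is made only in cells that express Pax7. The study describes its profiled myoblasts as coming from tamoxifen-induced mice. The Pax7 level in culture therefore does not show which cells had recombined. Pax7 itself was at 12.9, 51.7 and 25.2 CPM in WT and at 12.97, 8.29 and 10.6 CPM in the libraries labelled eIF5A-KO. The groups overlapped only through replicate 1 of each. The log2 fold change was -1.50 (SE 0.43, edgeR adjusted p = 0.484, unadjusted p = 0.0069). The summed level of 8 myoblast markers was 700 to 1803 CPM in WT and 627 to 1194 CPM in the libraries labelled eIF5A-KO. Of these markers 7 of 8 had a log2 fold change below 0 (median -0.49), against 51.7% of all tested genes. None had an adjusted p under 0.05 and 3 of 8 an unadjusted one (edgeR), against 6.76% of the tested genes. The groups did not overlap for Myog (log2 fold change -2.94) and Chrna1 (-1.62). The 8 fibroblast markers summed to 2895 to 3549 and 2857 to 3638 CPM, the 6 endothelial markers to 932 to 2048 and 1689 to 2631 CPM, the 7 mural cell markers to 329 to 578 and 659 to 722 CPM, and the 6 macrophage markers to 51.2 to 119 and 53.0 to 146 CPM. No marker was at 0 in every library, so myoblast genes were present beside those of other muscle-resident cells. The summed level of the mural cell markers did not overlap between the groups. Its largest part was Pdgfrb, at 209 CPM in WT and 367 CPM in the libraries labelled eIF5A-KO on average. The groups overlapped for Acta2, Tagln, Rgs5 and Notch3 of that list. Singly, groups did not overlap for 2 of 8 myoblast, 2 of 8 fibroblast (Col1a1 and Col1a2), 1 of 6 endothelial (Emcn), 3 of 7 mural cell and 0 of 6 macrophage markers, against 12.5% of all tested genes. The log2 fold change was above 0 for 7 of 7 mural cell, 6 of 6 endothelial, 4 of 6 macrophage and 2 of 8 fibroblast markers. An unadjusted p under 0.05 (edgeR) was found for 3, 1, 1 and 2 markers of these lists. Of all these markers only Myh11, a smooth muscle myosin of the mural cell list, passed an adjusted p under 0.05 (log2 fold change 1.52, SE 0.17, edgeR adjusted p = 0.0486). No gene passed that threshold with limma-voom, or when any 1 library other than WT replicate 1 was left out. The part of these cells in the Eif5a level was not tested, and in bulk RNA fewer cells of a type and less RNA per cell cannot be told apart.

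**Figure D1:**
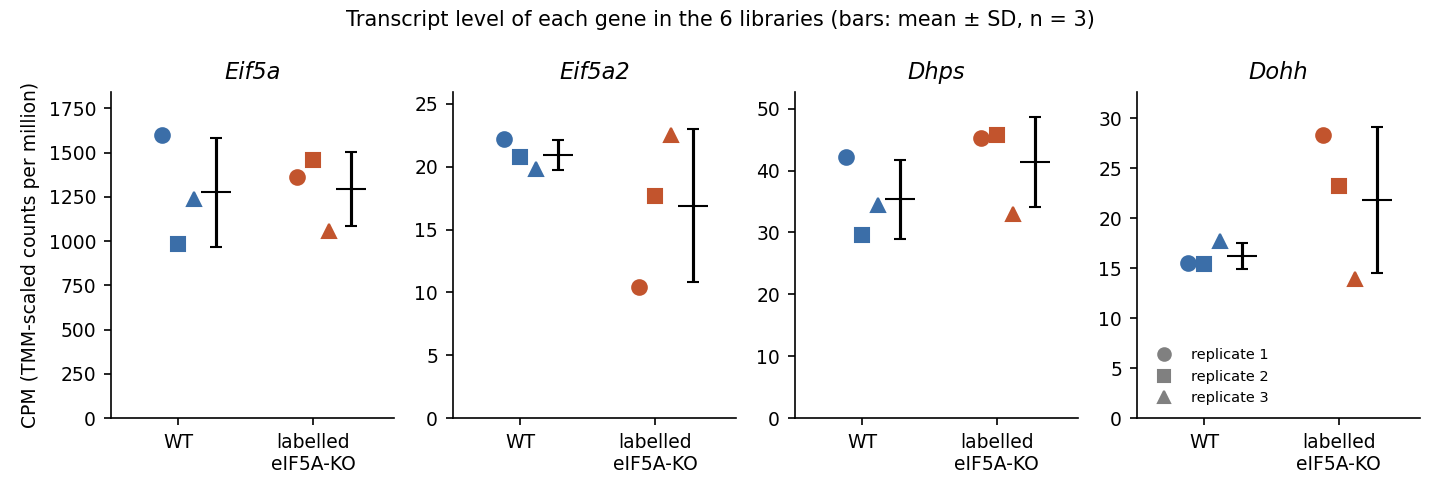
CPM of Eif5a, Eif5a2, Dhps and Dohh (y axes from 0, one scale per gene) in the 3 WT libraries and the 3 libraries labelled eIF5A-KO, with shapes for replicate numbers and bars for the mean ± SD. Eif5a overlaps entirely between the groups, while Eif5a2 and Dohh sit close together in WT and spread over 10.5 to 22.6 and 13.9 to 28.4 CPM in the libraries labelled eIF5A-KO.

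Eif5a2 (ENSMUSG00000050192, chr3:28781276-28798846, plus strand) encodes the second isoform, which carries the same hypusination site. It had 344, 392 and 336 reads in WT and 171, 299 and 398 in the libraries labelled eIF5A-KO, or 22.2, 20.8 and 19.8 CPM against 10.5, 17.7 and 22.6 CPM. Replicate 3 labelled eIF5A-KO was the highest of all 6 libraries, and replicates 1 and 2 of that group were the lowest pair. The log2 fold change was -0.31 (SE 0.26, 95% interval -0.90 to 0.29, edgeR adjusted p = 0.913), a level of 0.808 times that of WT with an interval of 0.535 to 1.22. Leaving out replicate 1 labelled eIF5A-KO moved it to -0.05, and leaving out replicate 3 of that group moved it to -0.57.

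Dhps (ENSMUSG00000060038, chr8:85071757-85075162, plus strand) codes for the 369 residues of the enzyme of the first step. Its reads numbered 653, 557 and 582 in WT and 741, 774 and 582 in the libraries labelled eIF5A-KO, which gave 42.2, 29.5 and 34.4 CPM against 45.3, 45.8 and 33.0 CPM. Replicates 1 and 2 labelled eIF5A-KO lay above every WT library and replicate 3 lay within their range. The log2 fold change was 0.23 (SE 0.21, 95% interval -0.24 to 0.69, edgeR adjusted p = 0.917), or 1.17 times the WT level with an interval of 0.848 to 1.61. Without WT replicate 1 it was 0.38, and without WT replicate 2 it was 0.11. Wdr83 lies on the opposite strand and shares 128 exonic bases with Dhps (5.51% of its exons), and whether the counting used strand is not given in the sources used here. Wdr83 had 369 to 422 reads per library.

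Dohh (ENSMUSG00000078440, chr10:81384428-81388352, plus strand) codes for the 302 residues of the enzyme of the second step. It had 241, 291 and 300 reads in WT and 464, 393 and 246 in the libraries labelled eIF5A-KO. In CPM these were 15.6, 15.4 and 17.7 against 28.4, 23.3 and 13.9, so that the libraries labelled eIF5A-KO held both the pair of highest values and the lowest value. The log2 fold change was 0.43 (SE 0.26, 95% interval -0.15 to 1.00, edgeR adjusted p = 0.848), the widest difference among the 4 genes, at 1.35 times the WT level with an interval of 0.902 to 2.01. It was 0.67 without replicate 3 labelled eIF5A-KO (unadjusted p = 0.00987, edgeR) and 0.20 without replicate 1 of that group. Gm48551, an annotated gene on the same strand that shares 972 exonic bases with Dohh (47.5% of its exons), had 5 to 22 reads per library. How reads in the shared bases were assigned is not given in the sources used here, and if they were dropped, the Dohh level is too low.

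None of the 4 genes passed an adjusted p under 0.05 (edgeR), a threshold that 0.0204% of the 14679 tested genes passed. None had an unadjusted p under 0.05, against 6.76% of the tested genes, and none had groups that did not overlap in CPM, against 12.5% of the tested genes. With DESeq2, limma-voom and limma on the FPKM values none had an adjusted p under 0.05 or an unadjusted one. The median log2 fold change of the 4 genes was 0.12, beside -0.01 over all tested genes. All 4 passed the filter on low counts.

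**Figure D2:**
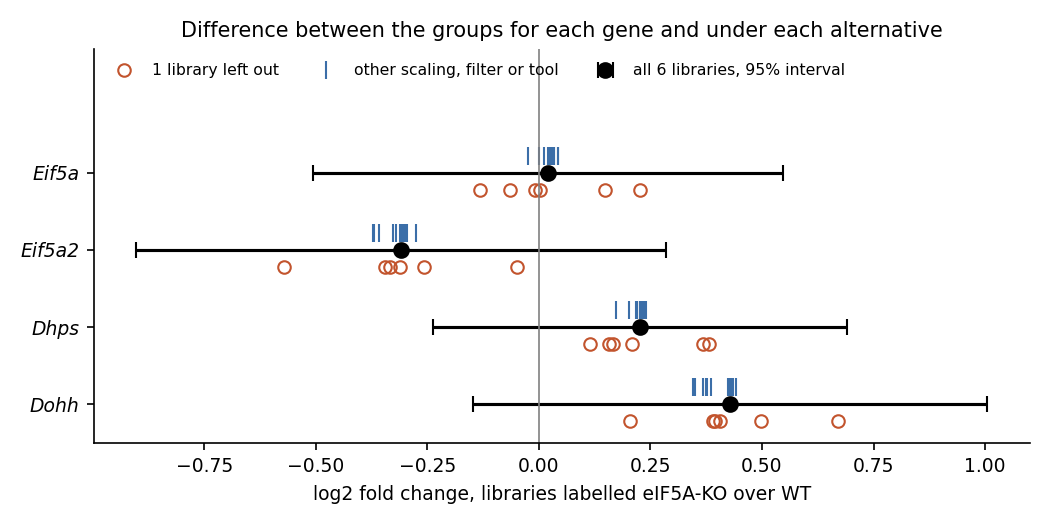
Log2 fold change of each gene, libraries labelled eIF5A-KO over WT (x axis), with the 95% interval from all 6 libraries in black, the values with 1 library left out as open circles and the values under other scaling, filters or tools as ticks. Every interval spans 0, and the single libraries move the values more than the other settings do.

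Levels can be compared between genes only per length, for which the FPKM values of the authors serve (fragments per kilobase of all exons of a gene, scaled to library size). Eif5a was at 530 ± 127 FPKM in WT and 541 ± 86.7 FPKM in the libraries labelled eIF5A-KO (mean ± SD, n = 3), rank 79 among the tested genes. Dhps was at 15.04 ± 2.67 and 17.7 ± 3.08 FPKM, rank 3413. Dohh was at 7.84 ± 0.642 and 10.6 ± 3.53 FPKM, rank 5235.

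Eif5a2 came last at 4.12 ± 0.220 FPKM in WT and 3.34 ± 1.21 FPKM in the libraries labelled eIF5A-KO, rank 8413. The order Eif5a, Dhps, Dohh, Eif5a2 held in 6 of 6 libraries. Eif5a was 29.4 to 37.1 times as high as Dhps within a library, Dhps 1.41 to 2.39 times as high as Dohh, and Dohh 1.52 to 6.66 times as high as Eif5a2. Dhps and Dohh are the neighbours whose ranges overlapped across libraries in FPKM, and their order is uncertain, since Dohh shares 47.5% of its exonic bases with Gm48551. With counts per kilobase of the main annotated transcript of each gene, a measure added after the data were seen, the same order held in 6 of 6 libraries.

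The transcripts of the enzymes were thus rare beside the transcript of their substrate. Among the 29 listed translation factors, the one next above Eif5a in mean FPKM was Eef1g, a subunit of the elongation factor eEF1, at 541 FPKM over all libraries, against 536 FPKM for Eif5a. The factor next below was Eif1, which guards start codon selection, at 370 FPKM.

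Ratios of FPKM within a library do not depend on its scaling, and 4 of them were compared by an exact two-sided permutation test over the 20 ways to divide the libraries, in which p cannot go below 0.1. Eif5a2 made up 0.652%, 0.987% and 0.752% of the summed FPKM of both isoforms in WT, and 0.361%, 0.570% and 0.997% in the libraries labelled eIF5A-KO. The share differed by -0.154 percentage points (exact permutation p = 0.5, Benjamini-Hochberg adjusted p = 0.667 over the 4 ratios), less than the SD within the libraries labelled eIF5A-KO, 0.324 percentage points. On main transcript lengths the share ran from 0.219% to 0.605%, so Eif5a2 stayed under 1% of the isoform transcripts on either length.

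Dhps was at 2.69%, 3.06% and 2.84% of Eif5a in WT and at 3.40%, 3.21% and 3.19% in the libraries labelled eIF5A-KO, and here the groups did not overlap. The log2 ratio was -5.13 ± 0.09 in WT and -4.94 ± 0.05 in the libraries labelled eIF5A-KO (SD, n = 3), a difference of 0.19 (exact permutation p = 0.1, the smallest this design allows, adjusted p = 0.4). Of the 11037 genes with a mean of at least 5 CPM, 6.93% had a ratio to Eif5a whose groups did not overlap, and 2.47% had one that was higher in every library labelled eIF5A-KO. Dhps and Eif5a are alike in exonic length (2324 and 2377 bases), and their ratio was steadier between replicates than either gene alone, whose CPM had a coefficient of variation of 16.1% to 24.3% (Eif5a) and 17.6% to 18.1% (Dhps).

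Dohh was at 1.13%, 1.82% and 1.66% of Eif5a in WT and at 2.41%, 1.85% and 1.53% in the group labelled eIF5A-KO. The log2 ratio differed by 0.34 (exact permutation p = 0.4, adjusted p = 0.667), with overlapping groups. Relative to Dhps, Dohh was at 41.9%, 59.3% and 58.5% in WT and at 71.1%, 57.6% and 48.0% in the libraries labelled eIF5A-KO. That log2 ratio differed by 0.15 (exact permutation p = 0.7, adjusted p = 0.7). The balance of the second enzyme to the first therefore overlapped between the groups.

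**Figure D3:**
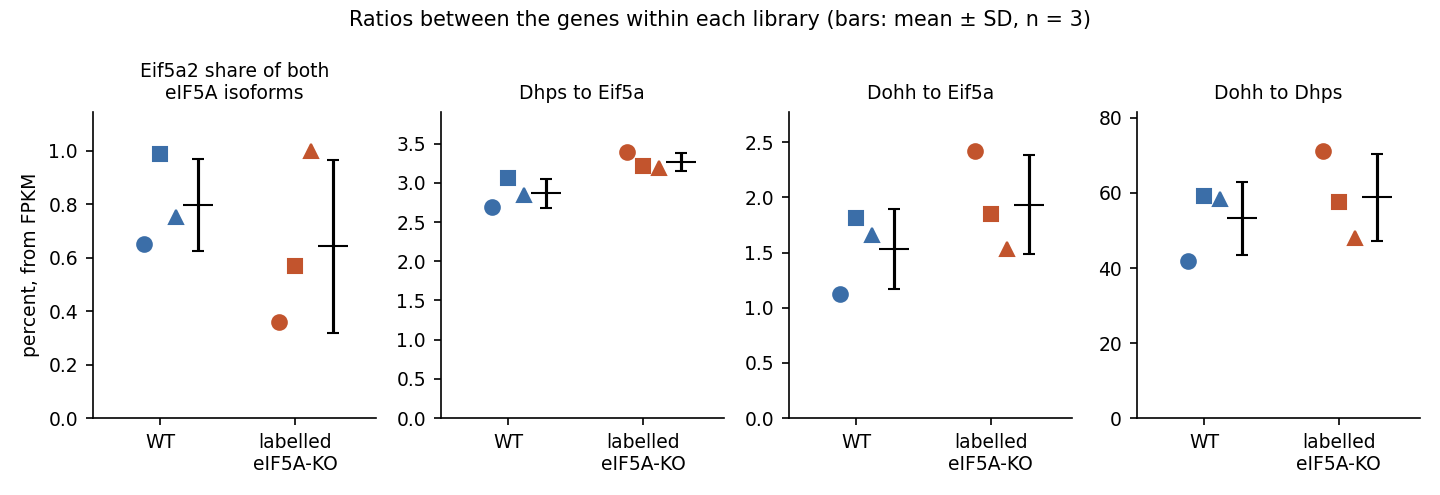
FPKM ratios within each library, in percent (y axes from 0), for the 3 WT libraries and the 3 libraries labelled eIF5A-KO, with bars for the mean ± SD. Dhps relative to Eif5a is the ratio whose groups do not overlap, at 2.69% to 3.06% in WT and 3.19% to 3.40% in the libraries labelled eIF5A-KO.

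The spread between libraries differed among the genes. The coefficient of variation of CPM was 5.74% in WT and 36.0% in the libraries labelled eIF5A-KO for Eif5a2, and 7.88% and 33.5% for Dohh. Whether the spread itself differed between the groups was not tested. The within-group SD of log2 CPM was 0.39 for Eif5a2 and 0.37 for Dohh, with a median of 0.25 over genes of like level, whereas it was 0.30 for Eif5a and 0.26 for Dhps, with medians of 0.31 and 0.25.

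Among the 6 pairs that the 4 genes form, Eif5a2 and Dohh varied in opposite directions across the 6 libraries. Pearson's r of log2 CPM was -0.92 (exact permutation p = 0.00278, adjusted p = 0.0167 over the 6 pairs) and Spearman's rho was -0.94 (exact permutation p = 0.0167, adjusted p = 0.1), over all 6 libraries. Replicates 1 and 2 labelled eIF5A-KO, with Eif5a2 lowest and Dohh highest, set most of the range, and r was -0.87 over the 4 libraries without them. Of the 11034 other genes with a mean of at least 5 CPM, 126 (1.14%) had an r below -0.9 with Eif5a2 and 197 (1.79%) with Dohh. With the group means taken out, r over the 6 libraries was -0.89. The libraries share their preparation and scaling.

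Eif5a and Dhps had an r of 0.89 (exact permutation p = 0.0236, adjusted p = 0.0708) and a rho of 0.83 (exact permutation p = 0.0583, adjusted p = 0.117). Over the 4 libraries without WT replicates 1 and 2 r was 0.91. Dhps and Dohh had an r of 0.75 and Eif5a and Dohh one of 0.47, with adjusted p = 0.206 and 0.412 (exact permutation). Without the 2 libraries farthest from the median of the first gene of each pair, these were 0.71 and 0.88. With the trend of each library on gene length taken out, the r of Eif5a and Dohh was 0.07. Eif5a2 had an r of -0.58 with Dhps and -0.26 with Eif5a, with adjusted p = 0.281 and 0.679 (exact permutation). The first of these became 0.38 without replicates 1 and 2 labelled eIF5A-KO, so it rests on those libraries, and the second became -0.60 without WT replicates 1 and 2.

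The Eif5a level moved with features of whole libraries. The share of all counts held by the 10 most abundant genes was 8.54% in WT replicate 1, 6.65% and 5.81% in replicates 2 and 1 labelled eIF5A-KO, and 5.01% to 5.05% in the other libraries. Eif5a ranked the 6 libraries in the same order, though the lowest shares were nearly tied. They were 5.052% in WT replicate 3, 5.014% in replicate 3 labelled eIF5A-KO and 5.012% in WT replicate 2. Libraries also tilted with gene length. The median log2 deviation of the shortest 10% of genes (up to 1675 bases) minus that of the longest 10% (from 10131 bases) was 0.61, -0.69 and -0.03 in WT replicates 1 to 3, and 0.27, 0.16 and -0.36 in the libraries labelled eIF5A-KO. WT replicate 1 was highest and WT replicate 2 lowest in both this tilt and Eif5a. The part of the most abundant genes in the Eif5a level was not tested.

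With a loess trend on gene length taken out of each library, an alternative added after the data were seen, the log2 fold changes were -0.03 for Eif5a, -0.31 for Eif5a2, 0.17 for Dhps and 0.35 for Dohh, and none had an adjusted p under 0.05 (edgeR). The r of Eif5a2 and Dohh was then -0.91, and that of Eif5a and Dhps 0.75. Before the trend was taken out these were -0.92 and 0.89. The cause of the inverse course of Eif5a2 and Dohh was not tested.

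**Figure D4:**
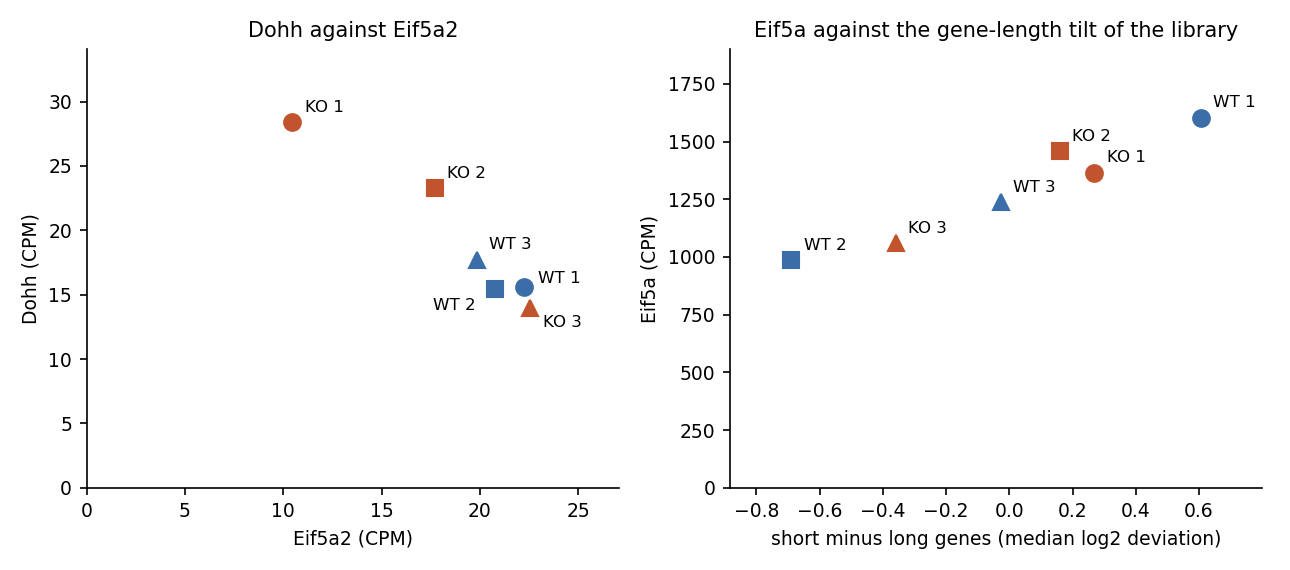
Left, Dohh against Eif5a2 in CPM for each of the 6 libraries (both axes from 0; KO stands for the libraries labelled eIF5A-KO). Right, Eif5a in CPM against the tilt of the library with gene length, the median log2 deviation of the shortest minus the longest 10% of genes. Replicates 1 and 2 labelled eIF5A-KO have the lowest Eif5a2 and highest Dohh, and Eif5a is 986 CPM at the most negative tilt and 1603 CPM at the most positive.

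The genes whose course over the 6 libraries was most like that of each gene were named by the 3 highest Pearson r among 11034 genes, as a description without a test. For Eif5a these were Ssr2, a subunit of the translocon-associated protein complex, Psmd13, a subunit of the proteasome lid, and Spr, sepiapterin reductase, with r of 0.998, 0.998 and 0.997. For Eif5a2 they were Il13ra1, an interleukin-13 receptor chain, Mpp5, a cell polarity scaffold, and Morc3, a nuclear ATPase, with r of 0.994, 0.986 and 0.986. Eif5a had an r over 0.9 with 640 genes and Eif5a2 with 203.

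For Dhps the closest genes were Mzt2, a component of the gamma-tubulin complex, Ap2s1, a subunit of the clathrin adaptor AP-2, and Bcap31, a chaperone of the endoplasmic reticulum, with r of 0.997, 0.997 and 0.995. For Dohh they were Letmd1, a mitochondrial membrane protein, Tecr, a reductase of very long chain fatty acid synthesis, and Crip2, a LIM domain protein, with r of 0.997, 0.995 and 0.992. Dhps had an r over 0.9 with 549 genes and Dohh with 210. From 1.84% (Eif5a2) to 5.80% (Eif5a) of the genes compared had such an r, over 6 libraries that share preparation and scaling.

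Spermidine, the substrate of DHPS, comes from the polyamine pathway, of which 17 of 18 listed genes were tested and none passed an adjusted p under 0.05 (edgeR; none had an unadjusted p under 0.05 either). Their median log2 fold change was -0.01, beside -0.01 over all tested genes, with 8 above 0 and 9 below. Odc1, ornithine decarboxylase and the entry step, was at 517 CPM in WT and 537 CPM in the libraries labelled eIF5A-KO on average (log2 fold change 0.06). Srm, spermidine synthase, was at 192 and 227 CPM (0.24), and Amd1, which supplies the aminopropyl donor, at 115 and 100.5 CPM (-0.19).

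The lowest value of that list was that of Sms, spermine synthase. It had a log2 fold change of -0.37 (SE 0.18, edgeR adjusted p = 0.794). Its level was 45.2, 31.7 and 38.4 CPM in WT and 29.0, 30.1 and 29.9 CPM in the libraries labelled eIF5A-KO, and these did not overlap. It was 1 of 17 tested genes of the list for which this held, against 12.5% of all tested genes.

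The proteins listed as acting on eIF5A after its synthesis were Xpo4, the exportin of eIF5A, Kat2b, which acetylates hypusinated eIF5A, and the deacetylases Hdac6 and Sirt2. None of the 4 passed an adjusted or an unadjusted p under 0.05 (edgeR), and their median was -0.29. Xpo4 was at 47.4 CPM in WT and 35.9 CPM in the libraries labelled eIF5A-KO (log2 fold change -0.40, SE 0.21, adjusted p = 0.808). Kat2b was at 21.5 and 17.6 CPM (-0.29), Hdac6 at 17.7 and 14.4 CPM (-0.30) and Sirt2 at 93.4 and 112 CPM (0.26).

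Of 29 other translation factors, none passed an adjusted or an unadjusted p under 0.05 (edgeR), 12 lay above 0 and 17 below, and the median was -0.03. The extremes were Eif1 at 0.34 (SE 0.23, adjusted p = 0.876) and Eif2s3x, the X-linked gamma subunit of eIF2, at -0.48 (SE 0.24, adjusted p = 0.809). Eif2s3x was at 63.3 CPM in replicate 1 labelled eIF5A-KO, the library in which Eif5a2 was also lowest, and at 103 to 156 CPM in the other libraries.

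**Figure D5:**
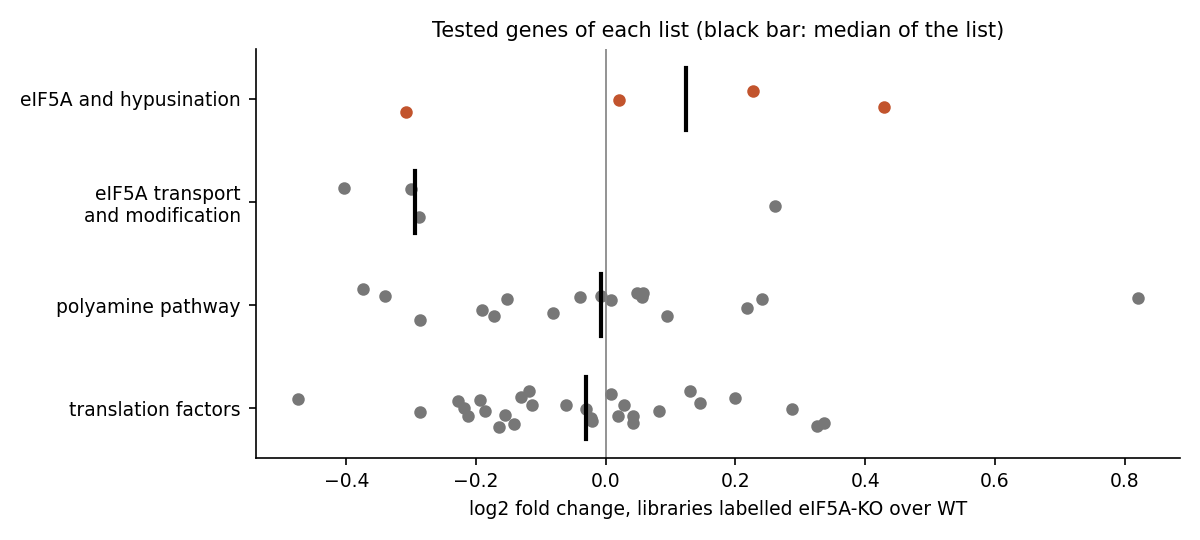
Log2 fold change of each tested gene, libraries labelled eIF5A-KO over WT (x axis), for the 4 genes of eIF5A and its hypusination, the 4 genes of eIF5A transport and modification, the 17 tested polyamine genes and the 29 translation factors, with black bars for medians. The medians are 0.12, -0.29, -0.01 and -0.03, and the points of each list lie on both sides of 0.

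Near-identical copies could share reads with Eif5a, and how reads that map to several places were counted is not given in the sources used here. Transcripts of 3 processed pseudogenes matched those of Eif5a at an identity of 90% or above along 200 bases or longer. These were Eif5al3-ps (97.2% over 434 bases), Gm14016 (91.8% over 488 bases) and Gm42779 (91.7% over 410 bases), each with 0 reads in all 6 libraries. No transcript of Eif5a2 or Dhps aligned with another gene at that setting, and no annotated gene overlapped Eif5a or Eif5a2.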

How the data were processed

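RNA was extracted with TRIzol, and libraries were made with an NEBNext Ultra kit from 1 ug of total RNA. Alignment by the authors used HISAT and the mm10 genome. They deposited raw counts per gene and, in a separate table, FPKM values. For read coverage per gene the study names DEGSeq2. The annotation, strand setting and treatment of multiply mapped reads are not given in the sources used here. Library totals were 16281216 to 17734551 counts.

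Genes passing filterByExpr (14679) were tested with edgeR 4.0.16 (TMM, quasi-likelihood, no covariate, Benjamini-Hochberg). Ratios and correlations were tested by exact permutation (720 pairings for correlations). Scripts were tested on simulated data. Alternatives included DESeq2 1.42.0, limma 3.58.1 on log2(FPKM + 1) and log2(FPKM + 0.1), other scalings and filters, a loess length trend and each library left out. Sequences and gene models came from GENCODE M21, of which 54409 gene IDs were in the table. Alignments used blastn.

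Named were the 4 genes, the 3 most alike genes of each, Odc1, Srm and Amd1 with the extremes of their list, all transport and modification genes, the neighbours of Eif5a in level and the extremes among translation factors, and overlapping or aligning genes. The genes and lists were chosen with earlier results of these data known. Pax7 and the other markers were named after their values were seen. The result of 1 gene that this rule names is not reported here.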

Additional observations from a re-analysis of the deposited data

How the results depend on the processing

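None of the 4 genes passed an adjusted p under 0.05 in any of the 18 alternatives. Eif5a2 was below 0, and Dhps and Dohh above 0, in all 18. Eif5a, near 0, turned to -0.025 with the length trend removed and ranged from -0.13 to 0.23 with 1 library left out. The log2 ratio of Dohh to Dhps ranged from -0.019 (without WT replicate 1) to 0.28 with 1 library left out, and the correlation of Eif5a and Eif5a2 turned to 0.00028 with the length trend removed. The other ratios kept their direction with each library left out, but not their size. The difference ranged from -0.33 to -0.013 percentage points for the Eif5a2 share. For the log2 ratios it ranged from 0.13 to 0.49 (Dohh to Eif5a) and from 0.15 to 0.24 (Dhps to Eif5a). Their exact test cannot pass 0.05, and the length basis and the replicate block leave a difference of log2 ratios as it is by construction. The other correlations kept their direction and side of the threshold with FPKM and with the length trend removed. The correlation of Eif5a2 and Dhps turned to 0.38 without replicates 1 and 2 labelled eIF5A-KO.

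Over all tested genes, 3 had an adjusted p under 0.05 (edgeR). The number was 249 without a filter, 88 with DESeq2, 5 with the length trend removed, and 24 with replicate number as a block. It was 0, with the count at an unadjusted p under 0.05 in brackets, for edgeR with DESeq2 size factors (992), library size alone (966) or at least 10 counts in every library (907), for limma-voom (961), and for limma on log2(FPKM + 1) and log2(FPKM + 0.1) (980 each). It was 3 with upper-quartile factors and without mitochondrial and the 10 most abundant genes. With 1 library left out it ranged from 0 to 56, the latter without WT replicate 1, and was 0 (585 to 1318) for each of the others. Whether the replicate numbers pair the libraries is not stated in the sources used here. The deviations of same-numbered libraries had correlations of 0.08, -0.14 and 0.10, and those of differently numbered ones -0.25 to 0.24. Values from so few libraries cannot decide on a pairing.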
